A study of Mus musculus with 4 samples.

Results

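Genes of glycolysis and lactate metabolism were described in purified hair follicle stem cells (HF-SCs), 10 in all, namely *Slc2a1*, *Hk1*, *Hk2*, *Pfkl*, *Pfkp*, *Pgk1*, *Pkm*, *Ldha*, *Ldhb* and *Pdk1*. They were taken by symbol from a table of 24421 genes, of which 17044 had a mean read count above 0, and all 10 genes were among these. The study asked how the transcriptome of HF-SCs differs after 2 d of miR-205 induction, and sequenced 2 control and 2 miR-205 inducible libraries of cells sorted from back skin at postnatal day 44 (P44).

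The labels give C57BL/6 for both groups, and all animals carried a Krt14-H2b-GFP allele (K14-H2BGFP in the labels), a nuclear green fluorescent protein driven by the keratin 14 promoter. The inducible mice combined a pTRE2-miR-205 transgene, made by injection into FVB mice, with the Krt14-rtTA activator, so that doxycycline switched the microRNA on where keratin 14 is expressed and not in HF-SCs alone. Doxycycline chow ran from P42 to P44. The treatment label of the controls reads untreated, whereas the protocol has gender-matched mice of both groups eating doxycycline, and the transgenes that the controls carried are not given. Live cells were gated as high for H2BGFP, α6 integrin and CD34 and negative for Sca1. The study describes its sequencing in general as done on pairs of control and inducible mice, with littermate controls, but the labels do not tie a library to an animal or litter.

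In the cell, glucose enters through facilitative transporters, is trapped by phosphorylation, and is broken down to pyruvate. Pyruvate is either reduced to lactate by lactate dehydrogenase or oxidized in mitochondria by the pyruvate dehydrogenase complex, which the pyruvate dehydrogenase kinases switch off. HF-SCs are known for high lactate dehydrogenase activity, and lactate production is known to favor their activation at the start of a new hair cycle.

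The values used were mean normalized read counts, that is, reads per gene divided by a depth factor of each library and averaged by the authors over all 4 libraries. This mean covers both groups, so a level given here is that of HF-SCs of the study as a whole, and no direction of change after miR-205 induction was derived. The decimals of the mean also fixed the whole read counts behind it. Exactly 1 set of 4 counts gave the printed mean for each of the 14591 genes with a mean up to 1000, and the 4 libraries could be told apart by depth. They are named A to D from the deepest to the shallowest, with depth factors of 1.24, 1.18, 0.966 and 0.716, or an estimated 16500000 reads counted on genes in A and 9430000 in D. Which of them were controls cannot be told from the labels, so each library is given by its own value and no group was compared. In any spread over the 4 libraries given below, differences between groups and between replicates therefore cannot be told apart. A 95% Poisson or exact binomial interval, where one is given, covers counting error only.

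The libraries carried the markers of the sorted population. All 11 HF-SC marker genes were above 0, with mean normalized counts of 14575 for *Cd34*, 12910 for *Itga6* (α6 integrin), 119883 for *Krt15* and 3192 for *Lhx2*, and a median over the list of 5639. *Ly6a*, which encodes the Sca1 antigen gated out, had a mean of 136. Markers of other cell types were also seen. All markers tested of myeloid cells, melanocytes, fibroblasts and sebaceous cells were above 0, as were the 4 suprabasal epidermal markers in the table. The highest of each were *Krt10* (suprabasal) with a mean of 7246, *Col1a1* (fibroblast) with 5186, *Fasn* (sebaceous) with 3913, *Cd74* (myeloid) with 2744 and *Mitf* (melanocyte) with 2024. The medians of these lists, in the same order, were lower, at 1318, 2030, 718, 243 and 219. Some members lay below 116.9, the median of all genes above 0. Among them were *Pdgfra* (fibroblast) at 39.5, *Awat2* (sebaceous) at 53.6, *Adgre1* (myeloid) at 62.3 and *Mlana* (melanocyte) at 9.77. How many such cells were present was not tested. Summed endothelial markers lay between 39.1 and 113 in every library. Of the red cell markers, 2 of 3 were listed at 0, but both are globin genes with near-identical copies, so that these zeros are uncertain. In bulk samples, a change in the number of cells of a type and a change in RNA per cell cannot be told apart.

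Because miR-205 was the agent induced, its sequence and the places in these genes that match it are shown first. A microRNA recognizes a target mRNA mainly through its seed, bases 2 to 8, written here in capitals in the mature mouse miR-205-5p of RefSeq (GRCm38.p6, chr1:193507503-193507524, minus strand).
mmu-miR-205-5p: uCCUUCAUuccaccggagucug

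The DNA letters that pair with this seed, ATGAAGG, were searched on the transcript strand of the longest annotated 3′UTR of each gene (NCBIM37, GENCODE vM1). They were held by 2 of the 10 genes, *Hk2* and *Pfkl*, 1 match each, against 11.7% of 15132 genes with a 3′UTR. The *Hk2* match lies at chr6:82675601-82675607, minus strand, in exon 18 of 18, at base 1697 of a 3′UTR of 2285 bases. That of *Pfkl* lies at chr10:77450140-77450146, minus strand, in exon 22 of 22, at base 809 of 1263. Both are shown with 10 bases on each side and the match in capitals.
Hk2: gtacagtgaaATGAAGGctgcccaggt
Pfkl: agagaagtttATGAAGGgctgagccct

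In both genes the base after the match was not A, so neither held the 8-base form, which 4.20% of all genes held. The shorter match TGAAGG, to bases 2 to 7, was found in 5 of the 10 genes, against 36.4% of all genes, with 3 copies in the 3734-base 3′UTR of *Pdk1* and 1 each in *Hk1*, *Hk2*, *Pfkl* and *Pfkp*. No match of either length was in the 3′UTRs of *Slc2a1* (884 bases), *Pgk1* (420), *Pkm* (541), *Ldha* (486) or *Ldhb* (188). A match is a description of the letters and does not show binding.

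All 10 genes lay above the median gene. Their median mean normalized count, not divided by length, was 2403, against 116.9 for all genes above 0, and 7 of 10 exceeded 1000, against 14.4% of all genes. By this count, 6 stood above the 90th percentile, and the lowest, *Ldhb*, was at the 71.5th. Because longer genes collect more reads, levels were next divided by the length in kilobases (kb) of the union of annotated exons, and the order of genes is given on this scale. Here 5 stood above the 90th percentile, and the lowest, *Pdk1*, was at the 60.4th. The 10 genes had a median of 604 per kb, against 39.8 over all genes with an annotated length, and ran over 74.0-fold from *Pkm* down through *Slc2a1*, *Ldha*, *Hk2*, *Pgk1*, *Pfkp*, *Ldhb*, *Hk1* and *Pfkl* to *Pdk1*.

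**Figure D1:**
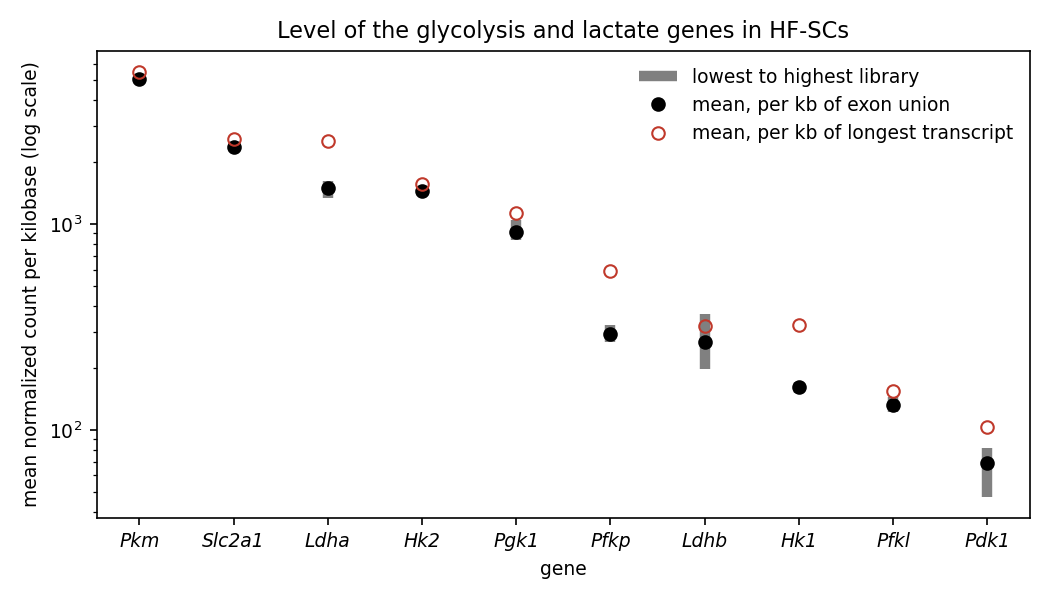
Mean normalized count per kilobase on a log scale for the 10 genes, in falling order. Filled points are means over the 4 libraries by exon union, open circles the same means by the longest transcript, and gray bars run from the lowest to the highest library for the 7 genes whose counts were recovered; the means fall from 5078 for *Pkm* to 68.6 for *Pdk1*.

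Glucose uptake was represented by *Slc2a1*, which encodes the transporter GLUT1 (chr4:118781316-118809935, plus strand, NCBIM37, as for all gene places below). Its mean normalized count was 6751, at the 98.4th percentile, or 2366 per kb. It made up 95.7% of the summed level per kb of the 5 *Slc2a* transporters examined. The next was *Slc2a8* at 59.7 per kb, 39.7-fold lower, and *Slc2a3*, which encodes the transporter of neurons, and *Slc2a4*, the insulin-responsive one of muscle and fat, were at 7.68 and 17.3 per kb. The counts of *Slc2a1* by library could not be recovered, because 7 sets of counts that lie within 1.5-fold of the mean gave the same value.

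Hexokinases phosphorylate glucose and thereby hold it in the cell. *Hk2* (chr6:82675019-82724448, minus strand), the inducible form abundant in muscle and many tumors, had a mean of 8589, or 1439 per kb, and *Hk1* (chr10:61731603-61842656, minus strand), the widely expressed form, a mean of 1376, or 161 per kb. *Hk2* was therefore 8.92-fold above *Hk1* per kb and contributed 89.7% of the summed level of *Hk1*, *Hk2*, *Hk3* and *Hkdc1*. *Hk3* was at 3.40 per kb and *Hkdc1* at 0.251. The order of the 2 main forms held for every length used, but its size did not, since by the longest transcript the fold was 4.84. *Hk1* had 1369, 1291, 1450 and 1395 normalized counts in libraries A to D. These were the closest values of the 7 genes whose counts were recovered, the highest being 1.12-fold over the lowest. For *Hk2*, 14 sets of counts gave the same mean, and no value by library is given.

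Phosphofructokinase catalyzes the committed step and has 3 genes, whose products assemble into mixed tetramers. *Pfkp* (chr13:6579014-6648023, minus strand), the platelet-type subunit, had a mean of 2751, or 293 per kb. *Pfkm*, the muscle-type subunit, was at 215 per kb, and *Pfkl* (chr10:77449692-77472828, minus strand), the liver-type subunit, at a mean of 577, or 131 per kb. All 3 were thus present, unlike the steps at which a single gene held nearly the whole level. *Pfkp* held 45.8% of the step per kb of exon union, 60.7% per kb of the longest transcript and 69.0% of reads, so its share depended strongly on the length assumed, although it was the highest of the 3 in each case.

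*Pfkp* had 3041, 2564, 2501 and 2895 normalized counts in libraries A to D, higher in A and D than in B and C. *Pfkl* had 602, 536, 637 and 535, which put C and A above B and D. Its intervals of 588 to 690 in C and 482 to 591 in D overlapped, which does not settle the matter. Whether this order is beyond counting error was not tested. The share of *Pfkp* among the reads of the 3 genes was 70.9% in A (interval 69.7 to 72.2%), 69.2% in B, 65.8% in C (64.2 to 67.3%) and 69.9% in D. The interval of library C lay below those of the other three libraries.

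Downstream of the splitting of the sugar, phosphoglycerate kinase makes the first ATP of the pathway and pyruvate kinase the last. *Pgk1* (chrX:103382439-103399038, plus strand) had a mean of 2055, or 916 per kb, and its testis paralog *Pgk2* was listed at 0. The normalized counts of *Pgk1* were 2342, 1882, 1867 and 2129 in libraries A to D. Libraries A and D again lay above B and C, the same order of the 4 libraries as for *Pfkp*. *Pkm* (chr9:59504383-59527182, plus strand) encodes the M-type pyruvate kinase. It was the highest of the 10 genes with a mean of 12143, at the 99.3rd percentile, or 5078 per kb, 2.15-fold above *Slc2a1*. *Pklr*, the liver and red cell form, was listed at 0. The table gives 1 value per gene and does not separate the M1 and M2 splice forms, and 260 sets of counts were possible for *Pkm*, so no library value is given.

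**Figure D2:**
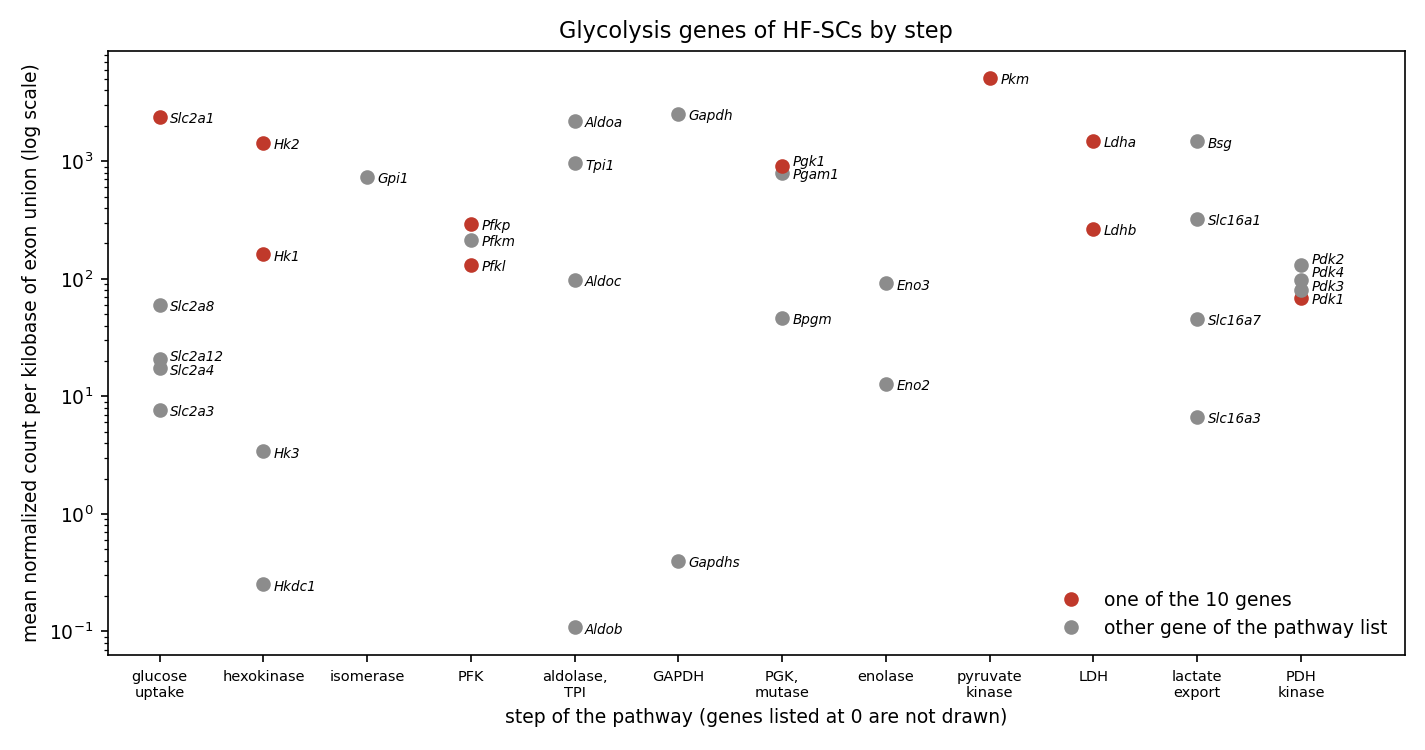
Mean normalized count per kilobase of exon union on a log scale for the 10 genes (red) and other genes of the pathway (gray), placed by step from glucose uptake to the pyruvate dehydrogenase (PDH) kinases. At glucose uptake, hexokinase and pyruvate kinase a red gene stands alone at the top, whereas the phosphofructokinases lie between 131 and 293 and the PDH kinases between 68.6 and 132.

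Lactate dehydrogenase interconverts pyruvate and lactate as tetramers of A and B subunits. *Ldha* (chr7:54096845-54110997, plus strand), whose subunit predominates in tissues that make lactate, had a mean of 4451, or 1493 per kb. *Ldhb* (chr6:142438769-142456477, minus strand), whose subunit predominates in the heart, had a mean of 417, or 266 per kb. *Ldha* was 5.61-fold above *Ldhb* per kb and made up 84.9% of the step, and the testis form *Ldhc* was listed at 0.

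By library the 2 subunits differed in spread. *Ldha* had 3979, 4801, 4793 and 4231 normalized counts in A to D, the highest 1.21-fold over the lowest. *Ldhb* had 316, 573, 471 and 310, so that B and C lay above A and D. Its highest value was 1.85-fold over the lowest, with intervals of 530 to 617 in B and 270 to 353 in D that did not overlap, and this spread exceeded that of 96.7% of genes with a mean of 300 to 1000. *Ldhb* accordingly took 10.7% of lactate dehydrogenase reads in B (interval 9.91 to 11.4%) and 8.94% in C, but 7.36% in A and 6.82% in D (5.98 to 7.75%). *Ldha* was also higher in B and C, by less. The summed level of the 7 myeloid markers was higher in the same libraries, at 3350, 7249, 5707 and 3567 in A to D. *Ly6a* and the sums of the recovered fibroblast and suprabasal markers were also higher in B and C than in A and D. The sums of melanocyte, sebaceous and endothelial markers did not follow this order. The part of any of these cell types in the *Ldha* and *Ldhb* values was not tested.

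*Pdk1* (chr2:71711281-71741915, plus strand) encodes a kinase that inhibits pyruvate dehydrogenase and so limits the oxidation of pyruvate in mitochondria. It had the lowest level per kb of the 10 genes, 68.6, with a mean of 534, and was not the leading kinase of its family on this scale. *Pdk2* was at 132 per kb, *Pdk4*, a kinase known to rise in fasting, at 98.6 and *Pdk3* at 80.0, and *Pdk1* held 18.1% of the 4 genes. Without division by length *Pdk1* took the largest share of reads, 35.6%, with an exon union of 7779 bases.

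*Pdk1* had 636, 593, 368 and 537 normalized counts in libraries A to D. Library C was the low one, with an interval of 331 to 409 against 592 to 682 in A, and the highest value was 1.73-fold over the lowest, a wider spread than that of 95.3% of genes with a mean of 300 to 1000. *Pdk4* was highest in the same library, with 280, 372, 493 and 240 in A to D, and so was *Pdk2*, with 374, 389, 503 and 398. Among the reads of the 4 kinases, *Pdk1* therefore took 23.4% in C (interval 21.3 to 25.6%), against 43.0% in A, 37.6% in B and 39.2% in D. *Pdk4* took 31.3% in C against 17.5 to 23.6% in the others. *Pdk2* took the largest share in C, 31.9%, against 24.7 to 29.0% in the others. Library C also had the highest sum of the 3 recovered suprabasal epidermal markers, 4551 against 2102, 2461 and 1896 in A, B and D, and the highest sum of melanocyte markers, 3866 against 2368 to 3207. *Ly6a* and the summed endothelial markers were highest in C as well. The sum of the 4 recovered of 6 fibroblast markers, without *Col1a1* and *Col1a2*, was nearly equal in C and B. It was 3776, 4616, 4656 and 4018 in A to D. The myeloid sum was highest in B and the sum of the 5 recovered sebaceous markers in A. The part of these cell types in the *Pdk1*, *Pdk2* and *Pdk4* values was not tested.

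**Figure D3:**
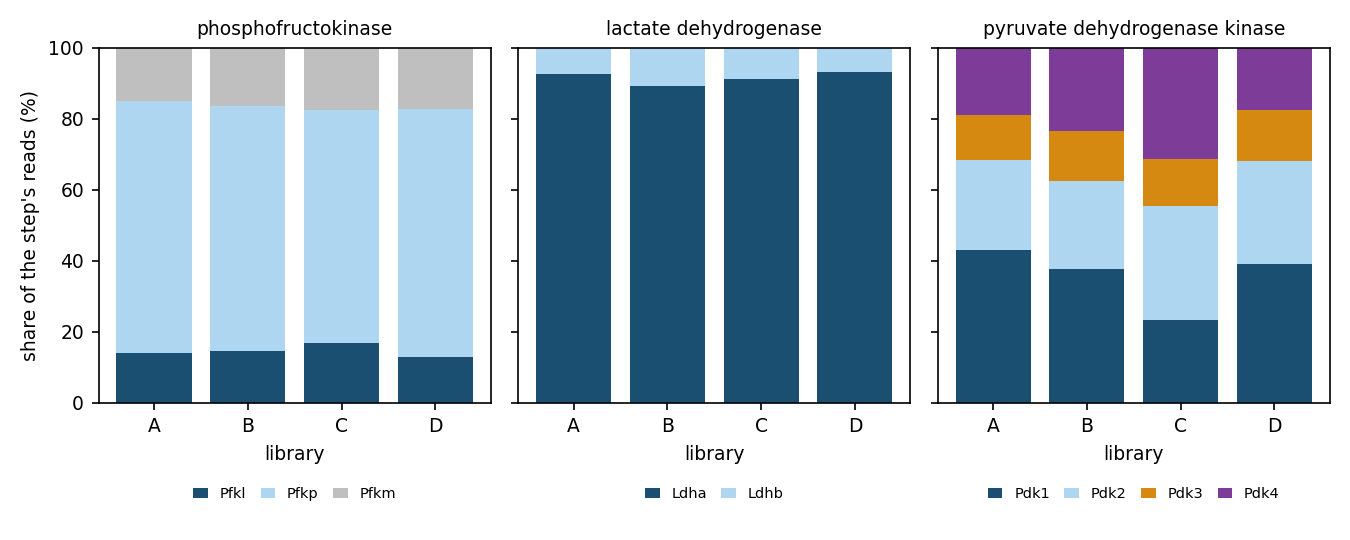
Share of the reads of each step (percent, from 0) taken by each gene in libraries A to D for phosphofructokinase, lactate dehydrogenase and pyruvate dehydrogenase kinase. *Pdk1* drops to 23.4% in library C, where *Pdk2* and *Pdk4* reach 31.9 and 31.3%, and *Ldhb* takes 6.82 to 10.7% throughout.

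The other 5 recovered genes, *Hk1*, *Pfkl*, *Pfkp*, *Pgk1* and *Ldha*, had a highest library 1.12- to 1.25-fold over the lowest. For 3418 genes with a mean of 300 to 1000 the median of this ratio was 1.24, with quartiles of 1.16 and 1.35, but of the 5 genes only *Pfkl* has a mean in that range. The counts of *Pfkp* and *Pgk1* were accepted on the condition that every library lay within 2-fold of the mean, and those of *Ldha* within 1.5-fold, which limits the spread they can show. *Ldhb*, *Pdk1* and *Pgk1* lay above that general median, and the other 4 recovered genes below. No single library was high or low throughout: *Pfkp*, *Pgk1* and *Pdk1* were highest in A, *Ldha* and *Ldhb* in B, and *Hk1* and *Pfkl* in C. For *Pfkl* the intervals of the highest and lowest library overlapped. Beside these values, among adjacent genes in the order of level per kb, the ranges over libraries did not overlap between *Pgk1* and *Pfkp*, *Ldhb* and *Hk1*, *Hk1* and *Pfkl*, or *Pfkl* and *Pdk1*. They overlapped between *Pfkp* and *Ldhb*, whose means differed 1.10-fold. The ranges do not cover the choice of length: per kb of the longest transcript *Hk1*, at 322, lay above *Ldhb*, at 320. *Ldha* and *Hk2* differed 1.04-fold, with the range of *Hk2* not known.

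**Figure D4:**
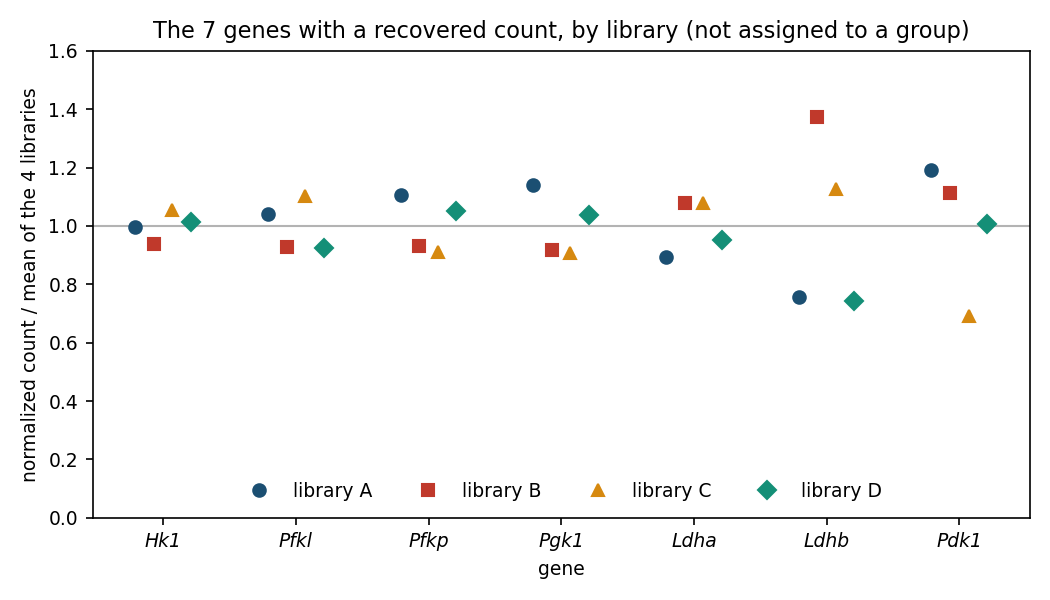
Normalized count in each of libraries A to D divided by the mean of the 4 libraries, for the 7 genes whose counts were recovered; the line marks 1. *Hk1* stays closest to 1, whereas *Ldhb* is high in B and C and *Pdk1* low in C; the libraries are not assigned to control or induced cells.

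The rest of the pathway was examined through a list of 48 further genes. Of these, 11 had a mean over 1000, 18 from 100 to 1000, 9 from 10 to 100 and 5 above 0 and up to 10, and 5 were listed at 0 (*Pgk2*, *Pgam2*, *Eno1*, *Pklr* and *Ldhc*). The 5 highest per kb were *Myc*, a transcription factor known to act on many glycolytic genes, at 2847, the glyceraldehyde-3-phosphate dehydrogenase *Gapdh* at 2535, the aldolase *Aldoa* at 2210, *Bsg*, a chaperone of lactate transporters, at 1477, and the triosephosphate isomerase *Tpi1* at 956. *Gpi1* and *Pgam1*, whose steps the 10 genes do not cover, were at 734 and 791 per kb. Of the enolases, *Eno3*, the muscle form, was at 91.5 per kb and *Eno2*, the neuronal form, at 12.7, whereas *Eno1*, the ubiquitous form, was listed at 0.

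The value of *Eno1* is uncertain. *Eno1b*, a near-identical copy that was looked up after the value of *Eno1* had been seen, had a mean of 360, with 301 to 397 over the libraries, and reads shared between the copies cannot be assigned. *Pkm*, *Ldha*, *Pgk1*, *Gapdh* and *Aldoa* also have processed copies in the genome, and how the authors' counting treated reads shared with them was not tested.

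Lactate leaves the cell through monocarboxylate transporters. *Slc16a1*, which encodes MCT1, had a mean of 1432, or 323 per kb, and *Slc16a3*, which encodes MCT4, the form typical of strongly glycolytic cells, a mean of 35.4, or 6.65 per kb, 48.6-fold lower. *Slc16a1* had 1541, 1517, 1218 and 1450 normalized counts in A to D, lowest in C. *Slc16a3* had 17.8, 33.1, 64.2 and 26.5, highest in C, where several of the marker sums given above were also highest. These are low counts, and the part of other cell types in them was not tested. On the mitochondrial side, *Pdha1* and *Pdhb*, the subunits of pyruvate dehydrogenase, were at 636 and 527 per kb, and the pyruvate carrier genes *Mpc1* and *Mpc2* at 144 and 70.8. *Hif1a*, the hypoxia-inducible factor known to act on *Slc2a1*, *Pgk1*, *Ldha* and *Pdk1*, had a mean of 3813, or 647 per kb.

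Because hypoxia-inducible factors are known to bind around the letters ACGTG, the promoter windows of the 10 genes (RefSeq, GRCm38.p6, 250 bases before to 50 after a start site) were searched for them on both strands. They were in 19.6% of 32851 windows of all genes and in 6 of the 14 windows of the 10 genes, several of which have more than 1 start site. The genes with a match were *Slc2a1*, *Hk1*, *Hk2*, *Pgk1*, *Pkm* and *Ldha*, and no window of *Pfkl*, *Pfkp*, *Ldhb* or *Pdk1* held ACGTG. A second form of the core, GCGTG, was searched in the same way and was in 32.4% of windows of all genes. It was in a window of each of *Pfkl*, *Pfkp*, *Ldhb* and *Pdk1*, and of *Slc2a1*, *Hk1* and *Ldha*. These are genes, some with more than 1 window, and do not compare directly with a share of windows. No window of *Hk2*, *Pgk1* or *Pkm* held GCGTG. Upstream of the start site, *Pgk1* and *Ldha* each held 2 runs of ACGTG close enough to fit in a stretch of 30 bases. How many windows of all genes hold such a pair was not counted, so the pairs are shown as a description only. Each stretch is shown with ACGTG on either strand in capitals. The *Pgk1* stretch is chrX:106186947-106186976, plus strand, its capitals from 150 to 127 bases before the start, and that of *Ldha* chr7:46845751-46845780, plus strand, from 48 to 30 bases before it. In *Ldha* the first run, CACGTG, reads the same on both strands and is counted on each.
Pgk1: aggACGTGacaaatggaagtagCACGTctc
Ldha: gcctaCACGTGggttcccgCACGTccgctg

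The 6 genes with ACGTG included the 5 with the highest level per kb as well as *Hk1*, a division that GCGTG did not follow. *Hk1*, *Pkm* and *Ldha* each also had a window without ACGTG, so the division depends on the windows taken. The letters are common and were not tested against level, and their absence from a window says nothing about the factor.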

How the data were processed

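Total RNA of sorted HF-SCs was sequenced as 4 libraries, 2 for each group, in 150-nt pairs. The authors used Hisat2 2.1.0 for alignment, SAMtools 1.3.1, HTSeq for the count of each gene and DESeq2 with defaults. Their genome is written NCBI37/mm10, names of separate builds. A DESeq2 version and an annotation were not given in the sources used here on the authors' work. The deposited signal is the mean over the 4 libraries of counts divided by size factors. The other 5 columns hold the authors' comparison of the groups (log2 fold change, its standard error, Wald statistic, p and adjusted p) and were not used. The table holds 0 columns of values per library.

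From the printed mean, of up to 15 significant digits, the worth of 1 read in each library was found from the commonest low values and refined over 4086 genes, and whole counts were then solved for each gene in Python 3.11.15 with numpy 2.4.6, a procedure tested on simulated data. A set was accepted if it was the only one among all counts, or else the only one with every library within 2-fold or within 1.5-fold of the mean. Of 17044 genes, 15242, 797 and 332 were solved in these ways and 673 were not. *Hk1*, *Pfkl*, *Ldhb* and *Pdk1* were of the first kind, *Pfkp* and *Pgk1* of the second and *Ldha* of the last. The latter kinds assume that no library lies outside the limit, and of genes with a mean of 300 to 1000, 99.4% lay within 2-fold and 97.6% within 1.5-fold. Total reads are estimates, since genes holding 54.6% of the summed mean were not solved. Libraries were not assigned to groups, and no test between groups was made.

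Gene lengths and 3′UTRs came from GENCODE vM1 on NCBIM37, which matched 95.0% of genes above 0 by symbol or RefSeq synonym (*Pkm* as Pkm2). Seed and promoter sequences are from RefSeq (GRCm38.p6), which matched all 10 genes. No coordinate was converted. Tables were joined with pandas 2.3.3, intervals came from scipy 1.17.1 and plots from matplotlib 3.10.9. The 10 genes, their paralogs and step partners in the pathway list, and the 5 genes of that list highest per kb were named. Members and lists were chosen with earlier results of these data known. Alternatives were other gene filters, lengths, scalings and matches, and leaving out each library. An item withheld for evaluation is not reported here.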

Additional observations from a re-analysis of the deposited data

How the results depend on the processing

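Length mattered most. Without division by length the shares of their steps changed from 95.7 to 95.3% for *Slc2a1*, 89.7 to 86.1% for *Hk2*, 45.8 to 69.0% for *Pfkp*, 84.9 to 91.4% for *Ldha* and 18.1 to 35.6% for *Pdk1*, and by the longest transcript those of *Hk2*, *Pfkp* and *Ldha* were 82.7, 60.7 and 88.7%. The median level per kb of the 10 genes, 604 by exon union, was 858 by the longest transcript and 2484 by the median transcript length, which short annotated fragments lower. Their median percentile, 94.3 among all genes above 0, was 92.4 among genes with a mean over 10, 90.6 among those over 50 and 91.7 per kb. Genes with a seed match numbered 2, 5 with the 6-base match and 0 where an A had to follow. Without length 9 genes changed rank, and *Hk1* and *Ldhb* changed places by the longest transcript. For the level of a recovered gene, leaving out 1 library gave 0.876 to 1.10 of the mean. All 35 alternatives for these levels stayed within the spread over libraries. By arithmetic a median or a mean without 1 library could not leave that spread, so this is no evidence of stability. Scaled by the total of recovered counts or by the upper quartile, the highest library was 1.96- and 1.85-fold over the lowest for *Ldhb* and 1.61- and 1.70-fold for *Pdk1*.

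No paired analysis was possible because the table holds no labelled value per library. Counts of *Slc2a1*, *Hk2* and *Pkm* by library were not recovered, so their spread is unknown. A gene listed at 0 can have had up to 0.181 reads in 1000000 in library A and 0.318 in D, the limit that 3 reads set, for counting error only.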

Other observations

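Libraries A to D, which could not be matched to the labelled groups, were compared pair by pair. Over genes with a mean of 300 to 1000, the median absolute log2 ratio was 0.13 between B and C, 0.14 between A and D and between B and D, 0.15 between C and D, and 0.18 between A and B and between A and C. Among genes of pyruvate and glucose control that the text has not described, *Tigar*, which encodes a phosphatase that lowers the main activator of phosphofructokinase, had 21.0, 51.7, 64.2 and 68.4 normalized counts in libraries A to D, lowest in A. *Pdp2*, which encodes a phosphatase that reverses the pyruvate dehydrogenase kinases, had 102, 87.4, 50.7 and 121, lowest in C, the library in which *Pdk1* was also lowest. *Pfkfb2* and *Pfkfb3*, bifunctional enzymes that set the activator of phosphofructokinase, had means of 1279 and 325.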
